A study of Mus musculus with 24 samples.

Results

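The vas deferens at embryonic days 14.5 and 16.5, written E14.5 and E16.5, was compared on 4 microarrays, 2 for each age, out of 24 arrays in the series. The members were chosen from the labels alone, as the arrays placed in the groups vas deferens E14.5 and vas deferens E16.5. Each held total RNA of the vas deferens of male CD1 mice, an outbred stock, with no mutation or treatment named. The other 20 arrays held the vas deferens at E18.5 and on postnatal day 1 (P1), and the efferent duct and the epididymis at the same 4 ages, also as 2 arrays a group. The labels do not say whether an array stood for 1 animal or a pool, or whether the epithelium was dissected from its mesenchyme. P-values therefore measure only the spread between these arrays, which may be technical. Precision is limited by having 2 arrays a group. A value is the log2 of a probe set's ratio to its median over the 24 arrays, so that 0 is that median and no gene's level can be set against another's. In whole tissue, fewer cells of a type and less RNA per cell cannot be told apart.

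The vas deferens is the muscular tube that carries sperm from the epididymis to the urethra. It forms from the posterior part of the Wolffian duct, an epithelial tube within mesenchyme that persists in males under androgens from the fetal testis, and its mesenchyme gives rise to a thick coat of smooth muscle. Beside it runs the Müllerian duct, the forerunner of the oviduct and uterus. In males this duct regresses when anti-Müllerian hormone from the testis acts on its receptor AMHR2 in the mesenchyme around the duct.

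HOX genes of the posterior duct were compared between the labelled segments. Hoxd13, a HOX gene of the most posterior body, lay between 2.81 and 3.90 on the 4 vas deferens arrays and between -0.35 and 0.23 on the 8 arrays of the other segments at these ages. Hoxa11 lay between 2.47 and 2.86 in the vas deferens and at 0.12 or below elsewhere. Hoxa13, also a gene of the most posterior body, did not follow them: it lay between 0.03 and 0.65 in the vas deferens, between -0.26 and 0.24 in the epididymis and between 0.52 and 0.995 in the efferent duct. Technically the 4 arrays were alike in the spread of their values, with interquartile ranges of 0.235 to 0.257, and in the 5' minus 3' difference of Gapdh, a measure of RNA integrity, at -0.091 to 0.031. By age, the Gapdh difference was 0.024 to 0.031 at E14.5 and -0.091 to -0.063 at E16.5. The same difference in Actb was -0.197 to -0.016 at E14.5 and 0.116 to 0.121 at E16.5. In the added poly-A control RNAs it was -0.127 to 0.027 at E14.5 and 0.332 to 0.417 at E16.5. Each of these measures moved with age, and their part in the results was not tested. At E18.5 and P1 the 4 arrays of the same organ, which enter each ratio's median and the fit, stood far from the rest, with Gapdh differences of -2.936 to -2.677 and Actb differences of -2.357 to -1.777. With these arrays left out of the fit, 2485 genes were called in the comparison below. Of 205 called genes that are named or in the lists, 12 lost their call. The ratios and the probe set of each gene were kept as chosen with these arrays included. Their part in the choice of probe sets was therefore not tested. Replicates correlated at 0.827 at E14.5 and 0.843 at E16.5 across genes, which are not independent of each other.

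Between E14.5 and E16.5 transcripts of Amhr2, Dkk1, Wif1, Smad6 and Nog fell in the vas deferens, 17 of 27 interstitial matrix genes and 8 of 27 smooth muscle genes rose, and 12 of 30 epithelial adhesion genes and keratins fell. Of 18193 genes, 2569 (14.1%) changed at an adjusted p under 0.05, which is what "called" means from here on. They were 1287 that rose (7.07%) and 1282 that fell (7.05%), and 578 of them (3.18%) changed by at least 2-fold, 390 upward (2.14%) and 188 downward (1.03%). The 7.07% and 7.05% are the shares to set beside each count of list members or markers. The test was limma's moderated test on group means over all 24 arrays, two-sided, with Benjamini-Hochberg adjustment over the 18193 genes. An error given with ± is its SE of a log2 difference between means of n = 2 arrays, with the spread pooled over all groups. For a difference in change between segments it is the SE of the difference between 2 such changes. The median log2 change of all genes was -0.02. Leaving out 1 vas deferens array at a time lowered the count to between 1296 and 1523 genes.

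The 15 largest rises and 15 largest falls were taken among genes with no overlap of the E14.5 and E16.5 arrays, a property of 61% of all genes. The rises included S100a8, S100a9, Cma1 and Cpa3, genes known from granulocytes or mast cells, which are described at the end. Sostdc1, a secreted antagonist of BMP and WNT ligands, stood at -0.63 and -1.12 at E14.5 and at 2.16 and 2.11 at E16.5, a rise of 3.02 ± 0.16 (8.08-fold, limma adjusted p = 5.33e-09), and its second probe set rose by 2.26. Aspn, a small leucine-rich proteoglycan of connective tissue, went from -4.96 and -4.81 to -1.98 and -1.74, a rise of 3.03 ± 0.38 (limma adjusted p = 2.99e-05). Quantile normalization reduced the rise of Aspn to 1.22 and a pseudocount of 0.1 to 1.49, with both calls kept. Slitrk4, a membrane protein of the Slitrk family, rose by 2.89 ± 0.48 and by 2.50 on its other probe set. Aldh1a7, a relative of the retinaldehyde dehydrogenases, rose by 2.70 ± 0.22 on its single probe set, and by 1.496 after quantile normalization. Pik3r1, the regulatory subunit of PI3-kinase, rose by 2.82 ± 0.35, against a median of 1.01 on 3 other probe sets. Each of these genes was lower on both E14.5 arrays than on either E16.5 array, as their choice required.

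Cpsf6, Zkscan1, Scmh1 and Hdac2 also stood among the largest rises, at 2.53 to 2.55, but their other probe sets did not carry a rise of that size. The medians of those were 0.11 for Cpsf6, -0.09 for Zkscan1, 0.59 for Scmh1 and -0.06 for Hdac2, and with the mean of all probe sets Zkscan1 was not called (0.32, adjusted p = 0.135). The rule that takes the most variable probe set of a gene chose these. Over all 844 called-higher genes with further probe sets, the median of those had the same sign for 613 (72.6%) and at least 0.5 times the size for 180 (21.3%). Among 758 called-lower genes the corresponding numbers were 640 (84.4%) and 222 (29.3%), and among all 9010 genes with several probe sets 63.8% and 36.7%. Values of other probe sets are therefore given below for genes where they departed most.

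**Figure D1:**
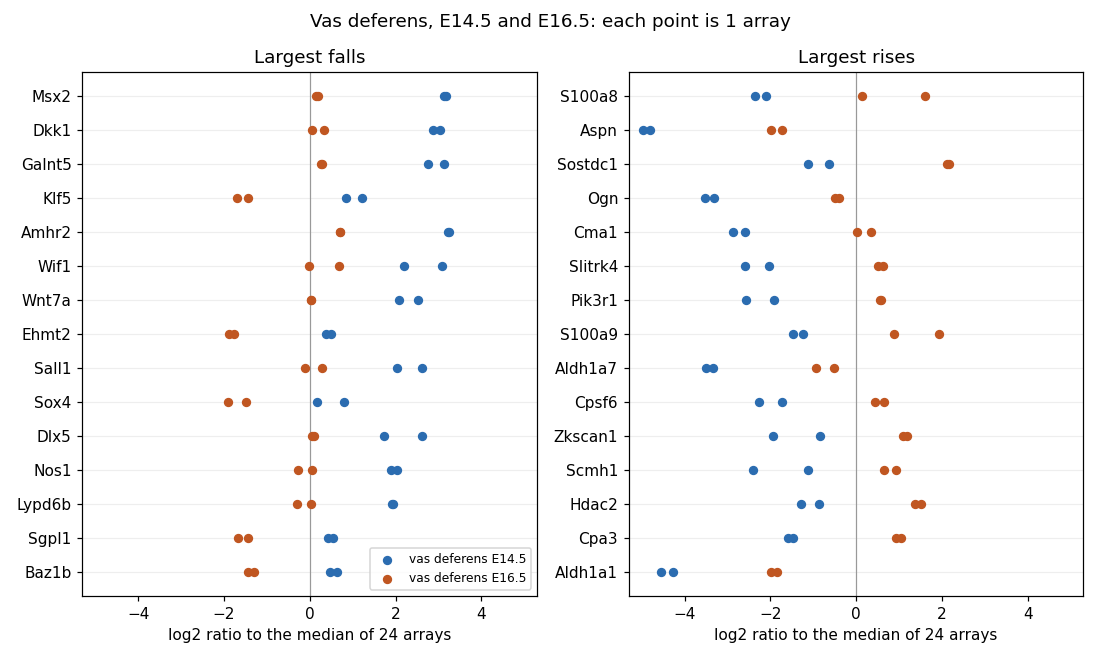
Log2 ratio to the 24-array median (x axis) of the 15 genes that fell most (left) and the 15 that rose most (right), with 1 point per vas deferens array, blue for E14.5 and orange for E16.5. No blue point lies among the orange points of its gene, as the choice of genes requires, and the E16.5 points of S100a8 and S100a9 are the widest apart among the rises.

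**Figure D2:**
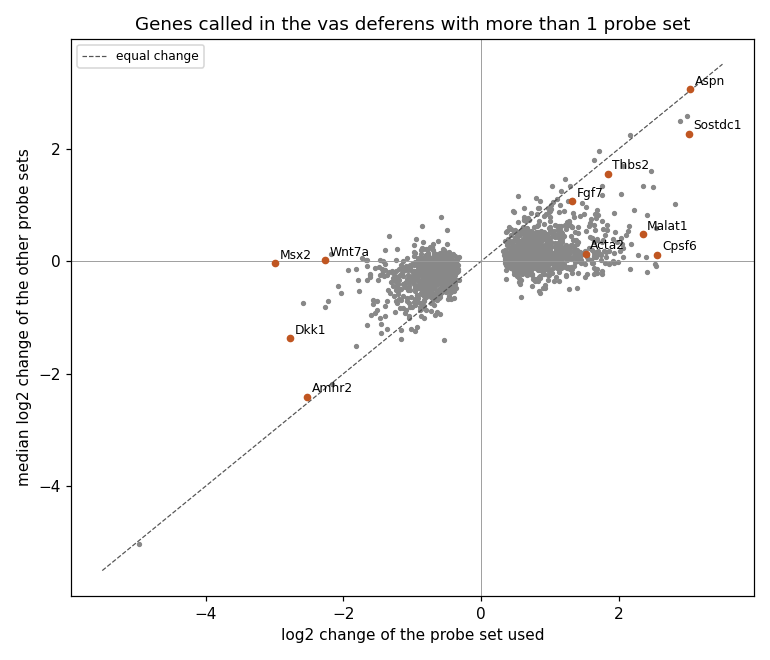
Log2 change of the probe set used (x axis) against the median log2 change of the gene's other probe sets (y axis), 1 point per called gene with several probe sets, with the line of equal change dashed. Amhr2, Aspn and Sostdc1 lie near the line, whereas Msx2, Wnt7a and Cpsf6 lie near 0 on the y axis.

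Amhr2, the receptor for anti-Müllerian hormone, fell with close replicates. It stood at 3.24 and 3.22 at E14.5 and at 0.71 and 0.71 at E16.5, a fall of 2.52 ± 0.23 on the log2 scale (5.75-fold, limma adjusted p = 1.45e-06), and 2 further probe sets had a median of -2.42. Its 2 replicates at each age lay far closer to each other than to the other age. The choice of Amhr2 among the largest falls already required that the ages not overlap. Wnt7a, the WNT ligand of Müllerian epithelium, went from 2.09 and 2.52 to 0.04 and 0.03, a change of -2.27 ± 0.22, while its 2 other probe sets had a median of 0.01 and the mean of all 3 fell by 0.75 (adjusted p = 0.000117). Of the 6 Müllerian duct markers measured, Amhr2 and Wnt7a fell and the other 4 were not called, with changes of -0.54 for Lhx1, -0.12 for Emx2, 0.37 for Hoxa11 and 0.39 for Wnt5a. These 4 are also genes of other urogenital tissue. Genes called lower made up 7.05% of all genes. The mean over the 6 markers was 1.34 and 1.53 on the E14.5 arrays and 0.66 and 0.64 on the E16.5 arrays, and the part of Müllerian tissue in the other falls was not tested.

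Several WNT antagonists were among the genes that fell, but not all of them. Wif1, which binds WNT ligands outside the cell, stood at 2.21 and 3.08 at E14.5 and at -0.02 and 0.67 at E16.5, a change of -2.32 ± 0.28 (limma adjusted p = 2.6e-05). Dkk1, which blocks the LRP co-receptors, went from 3.05 and 2.88 to 0.33 and 0.04, a fall of 2.77 ± 0.17 (6.84-fold, limma adjusted p = 1.35e-08), with -1.37 on its other probe set. Notum, which removes the lipid of WNT ligands, fell by 1.37 ± 0.20 on its single probe set. Nkd1, an intracellular brake induced by WNT signals, fell by 1.21 ± 0.15, or by 0.65 as the mean of its probe sets. All of these were higher on both E14.5 arrays than on either E16.5 array, which the choice of Wif1 and Dkk1 required. In 1 direction or the other, the ages did not overlap in 61% of all genes. Of other antagonists in the list, Dkk3 changed by -0.58 and was called, but lost its call in all 4 omissions of an array (-0.65 to -0.51). Dkk2 (0.05), Sfrp1 (-0.47) and Sfrp2 (0.30) were not called, and Sostdc1, outside the list, rose. Of all genes 7.05% were called lower and 7.07% higher. Over the WNT list 11 of 34 members fell and 3 rose, with a median of -0.23 against -0.02 for all genes, and leaving out single arrays gave 6 to 9 falls and 1 rise.

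The BMP and TGF-beta list moved in both directions, with 7 of 32 members lower, 5 higher and a median of 0.03, and with 4 to 7 lower and 3 to 4 higher when single arrays were left out. Of all genes 7.05% were called lower and 7.07% higher. Inhibitors of BMP signalling changed both ways. Smad6, an intracellular inhibitor that BMP signals induce, went from 1.87 and 2.10 to 0.26 and 0.01, a change of -1.85 ± 0.16 (limma adjusted p = 6.73e-07). Nog, or noggin, which binds BMP ligands, went from 1.21 and 1.49 to -0.25 and -0.35, a change of -1.65 ± 0.20. Against these, Chrd (chordin), which also binds BMP ligands, rose by 0.97 and lost its call in 1 of the 4 omissions of an array. Inhba, the activin A subunit, rose by 1.42 ± 0.15 on the probe set used, against 0.09 on the other, and by 0.76 as their mean. Among members not described elsewhere, the calls of Bmp4 (0.82), Id1 (0.71) and Bambi (-0.95) held in every omission of an array. Homeobox genes of BMP-responsive mesenchyme and limb fell as well: Msx2 changed by -2.995 ± 0.12, from 3.14 and 3.18 to 0.15 and 0.18, and Dlx5 by -2.09 ± 0.22, from 1.73 and 2.60 to 0.05 and 0.11. The second probe set of Msx2 changed by -0.04, and the mean of both fell by 1.52.

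The epididymis also fell in several of these genes, and the efferent duct changed little, by -0.37 to -0.01 in Amhr2, Wif1, Wnt7a, Msx2 and Dkk1. Amhr2 changed by -2.07 in the epididymis and by -0.37 in the efferent duct. For Wif1 the values were -2.31 and -0.01, for Wnt7a -1.85 and -0.13, and for Notum -1.36 and 1.18. The difference in change from the epididymis was not called for Amhr2 (limma adjusted p = 0.783), Wif1 or Wnt7a, which does not show that the segments changed alike. Dkk1 fell by 1.29 in the epididymis, and its difference of -1.49 ± 0.24 was called (limma adjusted p = 0.00304, kept on leaving out any 1 vas deferens array). Dkk1 started lower in the epididymis, at 1.21 and 1.20, and ended there at -0.12 and -0.04. The difference from the efferent duct was called for Amhr2, Wif1, Wnt7a, Msx2 and Dkk1.

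**Figure D3:**
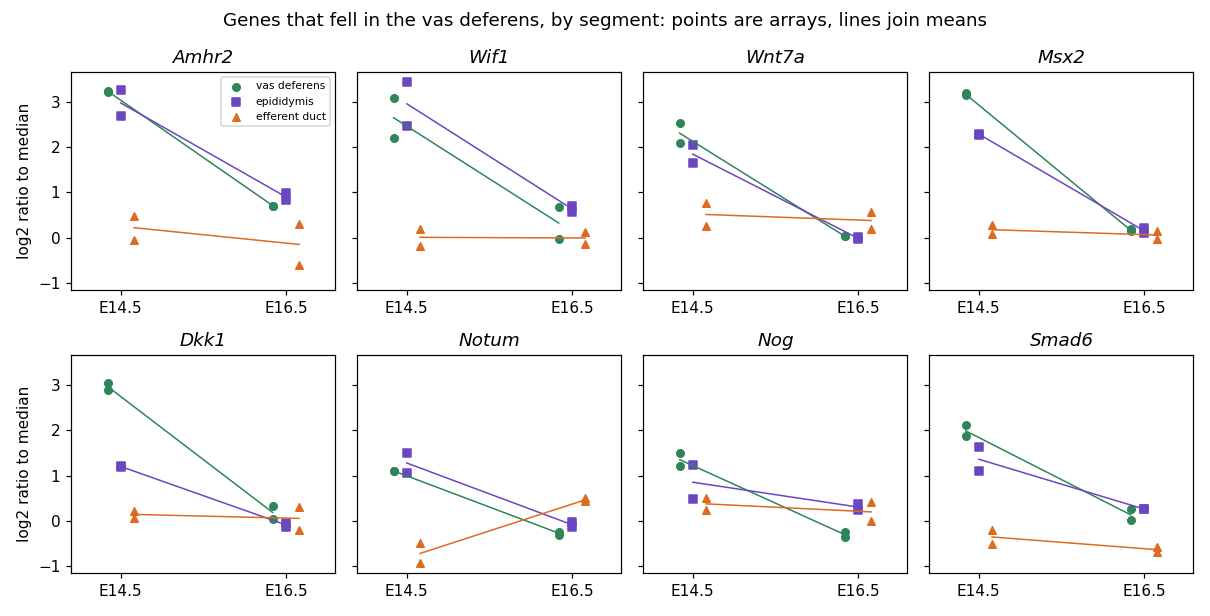
Log2 ratio to the 24-array median (y axis) at E14.5 and E16.5 (x axis) for 8 genes that fell in the vas deferens, with 1 point per array and lines joining the means of the vas deferens (green circles), epididymis (purple squares) and efferent duct (orange triangles). The green and purple lines fall for Amhr2, Wif1 and Wnt7a, the green line starts highest for Dkk1, and the orange lines are close to level except for Notum, which rose.

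The 23 lists of processes and pathways were chosen with earlier results of these data known. Among them the interstitial matrix had the largest share of members called higher. Of 27 members measured, 17 rose and 2 fell, against 7.07% and 7.05% of all genes, and the list's median change was 0.55. Mean values over the list were -1.21 on both E14.5 arrays and -0.38 and -0.45 at E16.5. Ogn (osteoglycin), a leucine-rich proteoglycan that binds collagen, went from -3.30 and -3.53 to -0.48 and -0.39, a rise of 2.98 ± 0.43 (limma adjusted p = 0.000111), and its second probe set rose by 2.57. Lum (lumican), of the same family, went from -1.52 and -2.21 to 0.21 and 0.08, a rise of 2.01 ± 0.21 (4.02-fold). Thbs2, a matrix glycoprotein that restrains angiogenesis, went from -3.63 and -3.30 to -1.51 and -1.75, a rise of 1.84 ± 0.13, with 1.55 on 2 other probe sets. In all 3 genes the ages were apart by more than the replicates, but quantile normalization reduced the rise to 1.88 for Ogn and to 0.51 for Thbs2. No overlap of the ages was required in the choice of Ogn. After quantile normalization Col5a2 (0.10), Col6a1 (0.35) and Postn (0.25) were not called.

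Other matrix members rested on 1 of several probe sets. Vcan (versican), a large proteoglycan of soft embryonic matrix, rose by 1.92 ± 0.30, but 7 other probe sets had a median of 0.01 and the mean of all rose by 0.50 (adjusted p = 0.00846). Col12a1, a collagen that coats collagen I fibrils, rose by 1.81 ± 0.19, against 0.07 on 3 other probe sets and 0.54 as the mean. The count for the list held without that choice: with the mean of all probe sets 17 members rose and 1 fell, and leaving out single arrays gave 12 to 14 rises and at most 1 fall. The epididymis had a median change of 0.61 over the same list and the efferent duct 0.26. The difference in change from the epididymis was called for 1 member, Col12a1, which lost that call under each omission of a vas deferens array.

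Contractile genes of smooth muscle rose in smaller number. Of 27 members of the list 8 rose and 1 fell, against 7.07% and 7.05% of all genes, with a median of 0.26. Acta2, smooth muscle alpha-actin, went from -2.09 and -2.02 to -0.45 and -0.63, a rise of 1.52 ± 0.10 (2.86-fold, limma adjusted p = 4.52e-08). Myocd (myocardin), the coactivator of serum response factor that drives the contractile programme, went from -1.45 and -0.99 to 0.36 and 0.26, a rise of 1.53 ± 0.22. Myl9, a regulatory light chain of smooth muscle myosin with a single probe set, went from -0.68 and -0.68 to 0.50 and 0.37, a rise of 1.12 ± 0.10 (2.17-fold, limma adjusted p = 1.09e-06). Pgm5, a protein of muscle adhesion sites, rose by 0.77 ± 0.14. The other probe sets of Acta2 and Myocd were at 0.13 and 0.08, and as means over probe sets these genes rose by 0.59 and 0.80, both still called.

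Serum response factor binds the CArG box, a core of A and T between paired C and G bases, which was searched by its consensus on both strands of the 250 bases before the start site in the RefSeq promoter table for the mouse assembly GRCm38.p6. It was found in 439 of 27025 genes (1.62%), and among the 21 smooth muscle members in the table it was found in Myl9 and Srf. Srf itself was not called. The sequence before Myl9 is shown because it is the member called higher that holds a match, 161 bases before the start site and in capitals below, at chr2:156775214-156775463 on the plus strand. The match is a description of the sequence and not a bound site.
Myl9: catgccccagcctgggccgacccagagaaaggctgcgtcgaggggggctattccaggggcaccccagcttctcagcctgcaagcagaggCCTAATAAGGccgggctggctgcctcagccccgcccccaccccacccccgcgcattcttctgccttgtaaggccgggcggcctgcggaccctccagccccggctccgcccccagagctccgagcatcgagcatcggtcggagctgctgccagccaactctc

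Of the 6 defining smooth muscle markers, 4 rose (Acta2, Myh11, Des and Tagln), against 7.07% of all genes called higher. After quantile normalization Acta2 (0.98) was still called, but Myh11 (0.46), Des (0.35) and Tagln (0.28) were not, and Des was not called as the mean of its probe sets (0.24). Over the 6 markers the list's mean was -1.14 and -1.03 at E14.5 and -0.36 and -0.50 at E16.5. Myh11, the smooth muscle myosin heavy chain, rose by 0.81 ± 0.16 in the vas deferens and by 1.87 in the epididymis. That difference of -1.06 was called, but not with 2 of the 4 omissions of a vas deferens array or with the mean of all probe sets. Leaving out single arrays reduced the rises in the contractile list to between 4 and 6, and the fall to 0, and kept 1 to 2 of the 4 marker rises. The skeletal muscle markers, which would show adjoining striated muscle, had 1 called gene of 15, Tnnc2, which rose, and a mean of -0.03 and -0.07 at E14.5 against 0.35 and 0.01 at E16.5.

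Epithelial adhesion genes and keratins fell without a called rise, while 7.05% of all genes were called lower and 7.07% higher. Of 30 members 12 fell, with a median of -0.45, and leaving out single arrays gave 6 to 10 falls and at most 1 rise. Krt14, a keratin of basal epithelial cells, went from 0.66 and 0.47 to -0.62 and -0.68, a change of -1.22 ± 0.13 (limma adjusted p = 7.68e-06), with -0.74 on 2 other probe sets. Cldn4, a tight junction claudin, went from 0.51 and 0.74 to -0.58 and -0.41, a change of -1.12 ± 0.14. Jup (plakoglobin), which links junctions to the cytoskeleton, changed by -1.09 ± 0.16, Spint1, an inhibitor of epithelial serine proteases, by -0.84 ± 0.18, and Cdh16, a cadherin of kidney and duct epithelium, by -0.81 ± 0.13. The ages did not overlap in any of these, as in 61% of all genes. The same list had medians of -0.11 in the epididymis and 0.47 in the efferent duct.

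The defining markers of duct epithelium followed the same course, while 7.05% of all genes were called lower and 7.07% higher. Of 7 measured, Pax8, Cldn3 and Krt18 fell and none rose, and their mean was -0.09 and 0.07 on the E14.5 arrays and -0.41 and -0.36 on the E16.5 arrays. Of 9 mesenchyme markers, Lum, Dcn and Twist2 rose and Pdgfrb fell, and their mean went from -0.32 and -0.40 to -0.12 and -0.13. The part of the balance of epithelium and mesenchyme in these gene lists was not tested. Klf5, a transcription factor of proliferating epithelium, fell further than any adhesion gene, from 0.84 and 1.21 to -1.69 and -1.44, a change of -2.59 ± 0.20 (6.02-fold). Its 2 other probe sets had a median of -0.74, and the mean of all fell by 1.36. Galnt5, an enzyme that starts O-linked glycans on mucin-type proteins, fell by 2.67 ± 0.19 on its single probe set.

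Basement membrane genes changed in both directions, while 7.05% of all genes were called lower and 7.07% higher. Of 22 members 7 fell and 3 rose, with a median of -0.16, and leaving out single arrays gave 4 falls and 2 to 3 rises. Lama1, a laminin alpha chain of early epithelial basement membranes, changed by -1.17 ± 0.18 and Lama5, the alpha chain of maturing epithelia, by -1.05 ± 0.13, or by -0.59 as the mean of its probe sets. Lama2, the alpha chain of muscle basement membranes, went the other way, from -2.38 and -2.58 to -1.02 and -1.23, a rise of 1.35 ± 0.16 (limma adjusted p = 2.35e-05), reduced to 0.56 by quantile normalization. Lama3, a chain of epithelial laminins, rose by 0.66 (0.35 as the mean of its probe sets), and Lama4, a chain of vessel and muscle laminins, changed by -1.22 but lost its call in all 4 omissions of an array and as the mean (-0.50). Frem1, a protein that anchors epithelium to mesenchyme, changed by -1.04 ± 0.15.

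**Figure D4:**
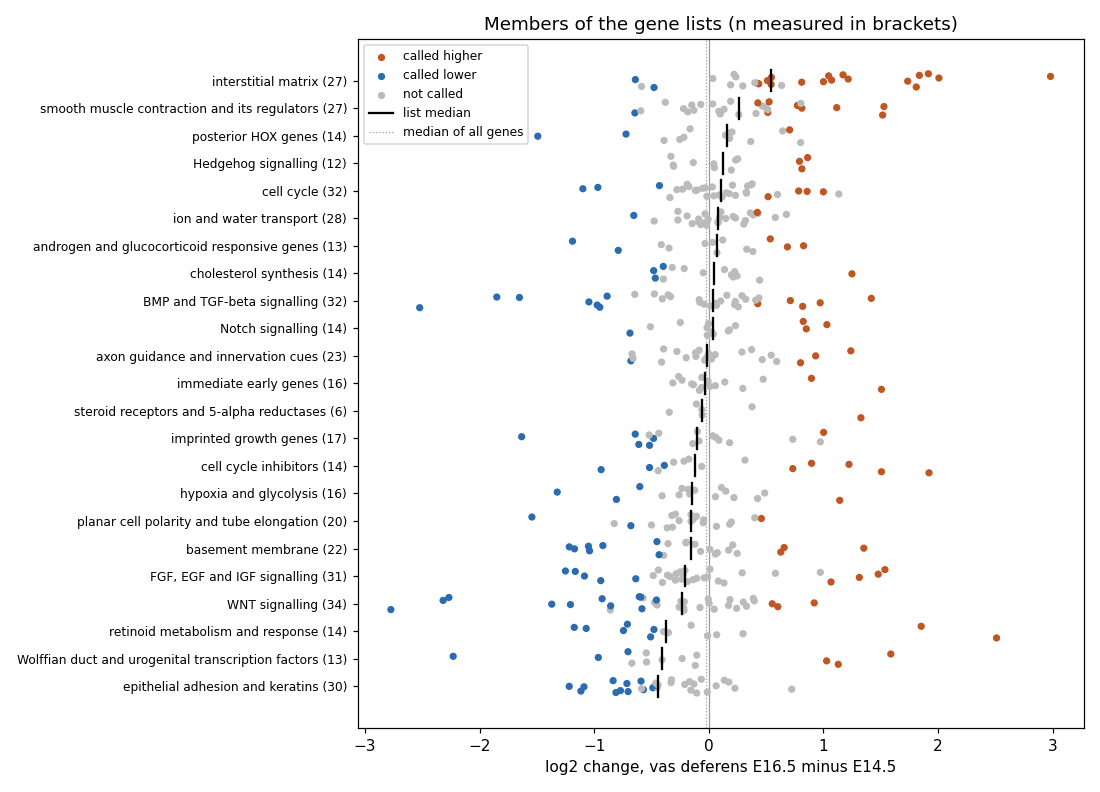
Log2 change of the vas deferens from E14.5 to E16.5 (x axis) for each measured member of 23 gene lists (y axis, number measured in brackets), coloured orange where called higher, blue where called lower and grey where not called, with list medians as black bars. The interstitial matrix has the highest median, 0.55, and epithelial adhesion and keratins the lowest, -0.45.

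Gdnf and Fgf7 were among the growth factor genes that rose. Gdnf, the ligand of the RET receptor, went from -0.22 and -0.03 to 1.49 and 1.21, a rise of 1.48 ± 0.17 (2.79-fold, limma adjusted p = 2.01e-05). Fgf7, a mesenchymal ligand for an epithelial FGF receptor, went from -0.73 and -0.64 to 0.71 and 0.54, a rise of 1.31 ± 0.18, with 1.06 on its other probe set. Spry2, a feedback inhibitor of these receptors, rose by 1.54 ± 0.20 on the probe set used, 0.10 on the other and 0.82 as their mean. Igfbp3, which binds insulin-like growth factors, fell by 1.17 ± 0.18, with -1.38 on its second probe set. Over the FGF, EGF and IGF list 4 of 31 members rose and 5 fell, against 7.07% and 7.05% of all genes, with a median of -0.21. Leaving out single arrays gave 4 rises and 3 to 4 falls. Fgf7 rose by 1.37 in the epididymis too, while Gdnf changed there by 0.25, a difference of 1.23 ± 0.25 that was called (limma adjusted p = 0.0148) but not with 2 of the 4 omissions of a vas deferens array.

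Of the 14 members of the retinoid list 6 fell and 2 rose, against 7.05% and 7.07% of all genes, with a median of -0.37, and leaving out single arrays gave 4 falls and 2 rises. Of the retinoic acid receptors, Rarb went from 1.24 and 1.42 to 0.22 and 0.31, a change of -1.07 ± 0.23, and Rarg from 0.29 and 0.14 to -0.93 and -0.98, a change of -1.17 ± 0.15. Stra6, which takes up retinol, and Dhrs3, which reduces retinaldehyde, changed by -0.71 ± 0.13 and -0.75 ± 0.16. Against these, Rbp4, the retinol carrier, went from -2.21 and -2.29 to -0.58 and -0.22, a rise of 1.85 ± 0.16 (limma adjusted p = 7.7e-07). Aldh1a1, a retinaldehyde dehydrogenase, went from -4.55 and -4.28 to -1.97 and -1.84, a rise of 2.51 ± 0.26 that fell to 0.62 and lost its call under quantile normalization (adjusted p = 0.0743). Aldh1a2, the main enzyme of retinoic acid synthesis in the embryo, changed by -0.51 ± 0.14 and lost its call under each omission of an array.

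The shares of all genes called higher and lower were 7.07% and 7.05%. Among 6 steroid receptors and 5-alpha reductases measured, Esr1, the estrogen receptor alpha, was the one called. It went from -0.89 and -0.44 to 0.66 and 0.66, a rise of 1.33 ± 0.24 (limma adjusted p = 0.000851), with 0.37 on 2 other probe sets and 0.69 as the mean. Of 13 androgen and glucocorticoid responsive genes 3 rose and 2 fell, or 1 to 3 and 1 to 2 when single arrays were left out. Pmepa1 rose by 0.83 ± 0.14 and Tmprss2, a serine protease gene under androgen control in the prostate, changed by -1.19 ± 0.24. Per1, a circadian clock gene, rose by 0.69 ± 0.15 and lost its call in 2 of the 4 omissions of an array. As the mean of probe sets Pmepa1 was not called (0.33, adjusted p = 0.0707) and Tmprss2 was at -0.61.

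Most posterior HOX genes were not called, and of all genes 14.1% were called. Of 14 members, Hoxc10 and Hoxc9 fell, Hoxd13 rose by 0.70 ± 0.18 and 11 were not called. Of those 11, Hoxa10 changed by 0.80 and Hoxa9 by -0.25, and both were called as the mean of their probe sets (0.67 and -0.35), while Hoxd12 changed by 0.64 on the probe set used. Hoxc10 went from 1.89 and 1.95 to 0.35 and 0.51, a change of -1.49 ± 0.14 (2.81-fold lower, limma adjusted p = 1.73e-06), and Hoxc9 from 0.27 and 0.13 to -0.49 and -0.56. In the epididymis Hoxc10 stood at 1.59 and 1.80 at E14.5 and at 1.51 and 1.59 at E16.5. The difference in change between these segments, -1.35 ± 0.20, was called (limma adjusted p = 0.00176) and held under each omission of a vas deferens array and each other setting. Hoxd13 lost its call with 2 of the 4 omissions.

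Transcription factors of the Wolffian duct and its surroundings also changed in both directions, 3 of 13 higher and 3 lower. The shares of all genes were 7.07% and 7.05%. Sall1, a zinc finger factor of the nephrogenic mesenchyme and ducts, went from 2.04 and 2.61 to -0.10 and 0.29, a change of -2.23 ± 0.26, with -0.70 on its second probe set and -1.47 as the mean. Pax8, of the duct epithelium, changed by -0.96 ± 0.16 on the probe set used and by -0.50 as the mean. Wt1, a factor of coelomic epithelium and urogenital mesenchyme, changed by -0.71 ± 0.15. Tcf21, of visceral mesenchyme, went from -0.44 and -0.68 to 1.15 and 0.90, a rise of 1.59 ± 0.18 (limma adjusted p = 9.96e-06). Eya1, a partner of homeobox factors, went from 1.19 and 1.77 to 2.58 and 2.63, a rise of 1.13 ± 0.18. Nr2f2 (COUP-TFII), a nuclear receptor of duct mesenchyme, rose by 1.03 ± 0.12 but was not called as the mean of its 6 probe sets (0.25, adjusted p = 0.0705).

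Cell cycle genes did not move as a body, while 7.07% of all genes were called higher and 7.05% lower. Of 32 members 4 rose and 3 fell, with a median of 0.10, and leaving out single arrays gave 1 to 3 rises and 2 falls. Birc5 (survivin), of the chromosomal passenger complex, rose by 0.52. The kinetochore genes Cenpa, Cenpe and Cenpf rose by 1.00, 0.86 and 0.78 on the probe sets used, against 0.49, 0.37 and 0.22 as means of probe sets, where Cenpe and Cenpf were not called. Mcm7, a subunit of the replicative helicase, went from 0.42 and 0.42 to -0.63 and -0.47, a change of -0.97 ± 0.13, and Mcm3, of the same helicase, changed by -1.10 ± 0.22, or by -0.40 as the mean of its probe sets. Among 14 inhibitors 5 rose and 3 fell, or 4 to 5 and 1 to 2 when single arrays were left out. Cdkn2c and Cdkn2d, inhibitors of the CDK4 and CDK6 kinases with 1 probe set each, rose by 1.22 ± 0.15 and 0.90 ± 0.12, while Cdkn1a, the p53-induced inhibitor, changed by -0.94 ± 0.17, or by -0.59 as the mean of its probe sets. Quantile normalization reduced the rise of Cdkn2c to 0.70.

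Smaller lists held single strong members, while 7.07% of all genes were called higher and 7.05% lower. Of the Hedgehog list, Shh, the epithelial ligand, rose by 0.86 ± 0.14, Cdon, a co-receptor, by 0.81 ± 0.11 and Hhip, a feedback inhibitor, by 0.79 ± 0.25 (not called in 3 of the 4 omissions of an array), and the other 9 were not called. The second probe set of Shh was at -0.03 and that of Cdon at -0.31, and Cdon was not called as their mean (0.25, adjusted p = 0.0845), whereas the 3 further probe sets of Hhip had a median of 1.12. Of the Notch list, Notch2, Jag1 and Nrarp rose (Jag1 in none of the 4 omissions) and Hes1, a repressor downstream of Notch, changed by -0.69 ± 0.14. As the mean of its probe sets Notch2 rose by 0.53, against 1.03 on the probe set used. Ror1, a receptor for non-canonical WNT ligands, went from 1.10 and 1.35 to -0.33 and -0.31, a change of -1.54 ± 0.24, with -0.93 on 2 other probe sets. Nnat, an imprinted gene, went from 1.87 and 1.99 to 0.20 and 0.39, a change of -1.63 ± 0.22. Of 16 immediate early genes 14 were not called, and of all genes 14.1% were called.

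Most markers of other cells were not called, while 7.07% of all genes were called higher and 7.05% lower. The largest changes were in embryonic globin genes of red blood cells. Hbb-y and Hba-x, embryonic globin genes chosen after their values were seen, whose probe sets may share sequence with other globins, fell by 4.97 ± 0.38 and fell by 3.52 ± 0.20, and Alas2, the erythroid enzyme of haem synthesis, rose by 1.38 ± 0.16. Quantile normalization reduced the change of Hbb-y to -2.29. The epididymis and efferent duct changed alike in sign, by -5.42 and -6.14 for Hbb-y. Over the 9 erythroid markers the mean was 1.65 and 1.57 at E14.5 and 0.90 and 0.75 at E16.5. The median change of these markers was -0.04 and 6 of them were not called, so the lower mean is not a general fall. Of 14 endothelial markers Cdh5 and Erg rose and Ramp2 fell, of 16 macrophage and leukocyte markers Cx3cr1 and Lyz2 rose and Csf1r fell, and of 15 neural and Schwann markers Stmn2 rose. The 12 kidney and ureter markers were not called, and of 13 testis markers Sox9 fell. Among the markers named here and above, Tagln, Des, Krt18, Lyz2, Stmn2 and Sox9 lost their calls in all 4 omissions of an array, and Twist2 and Tnnc2 in 3. As means of probe sets Csf1r (-0.16), Cx3cr1 (0.34) and Sox9 (-0.26) were not called, and Erg and Cdh5 rose by 0.55 and 0.30.

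The change of the vas deferens differed from that of the epididymis for 271 genes (1.49%), 178 more positive in the vas deferens (0.978%) and 93 more negative (0.511%). After quantile normalization the split was 401 to 369. Of the 2569 genes called in the vas deferens, 221 (8.6%) also differed from the epididymis. Cdh10, a type II cadherin, went from 0.55 and 0.77 to 2.79 and 2.46 in the vas deferens and from 1.54 and 1.29 to 0.12 and 0.22 in the epididymis, a difference of 3.20 ± 0.24 (limma adjusted p = 2.12e-06). As the mean of its probe sets the difference was 1.34. Plcxd3, a phospholipase C relative, went from 0.11 and 0.50 to -1.68 and -1.50 and in the epididymis from -0.33 and 0.02 to 0.75 and 0.70, a difference of -2.78 ± 0.36 (limma adjusted p = 0.00052). Sostdc1 rose by 1.18 in the epididymis against 3.02 in the vas deferens, a difference of 1.83 ± 0.23, and Klf5 fell by 0.65 against 2.59. In each of these 4 genes the call held when any 1 vas deferens array was left out.

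The second array of the epididymis at E14.5 stood apart, with a Gapdh 5' minus 3' difference of -0.543 and a correlation of 0.385 with its replicate. Without it 323 genes differed between the segments. The differences of Zkscan1, Malat1, Rc3h2 and Resf1, which were among the largest, were not called with the mean of all probe sets, where they were 0.34, 0.79, 0.39 and 1.46. The counts were 138 to 268 genes when single vas deferens arrays were left out.

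The change differed from that of the efferent duct for 2697 genes (14.8%), 1153 more positive in the vas deferens (6.34%) and 1544 more negative (8.49%), and for 1458 (56.8%) of the 2569 called in the vas deferens. Nts (neurotensin), a peptide of gut and brain, rose from 2.08 and 2.73 to 4.36 and 4.23 in the vas deferens and fell from 2.42 and 1.63 to -0.08 and -0.25 in the efferent duct, a difference of 4.08 (limma adjusted p = 3.41e-06). In the epididymis it stayed between -0.63 and -0.48. Grb7, an adaptor of receptor tyrosine kinases, changed by -1.15 ± 0.12 and rose by 1.60 in the efferent duct, and Npy, neuropeptide Y, changed by -1.20 ± 0.22 and rose there by 1.86. Myo5b, a motor of apical membrane traffic, changed by -1.13 ± 0.17 against 1.83, or by -0.46 in the vas deferens as the mean of its probe sets. The efferent duct arrays of these ages had interquartile ranges of up to 0.607, against at most 0.257 in the vas deferens, and the part of this in the difference was not tested. Without single vas deferens arrays 1668 to 1998 genes differed.

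**Figure D5:**
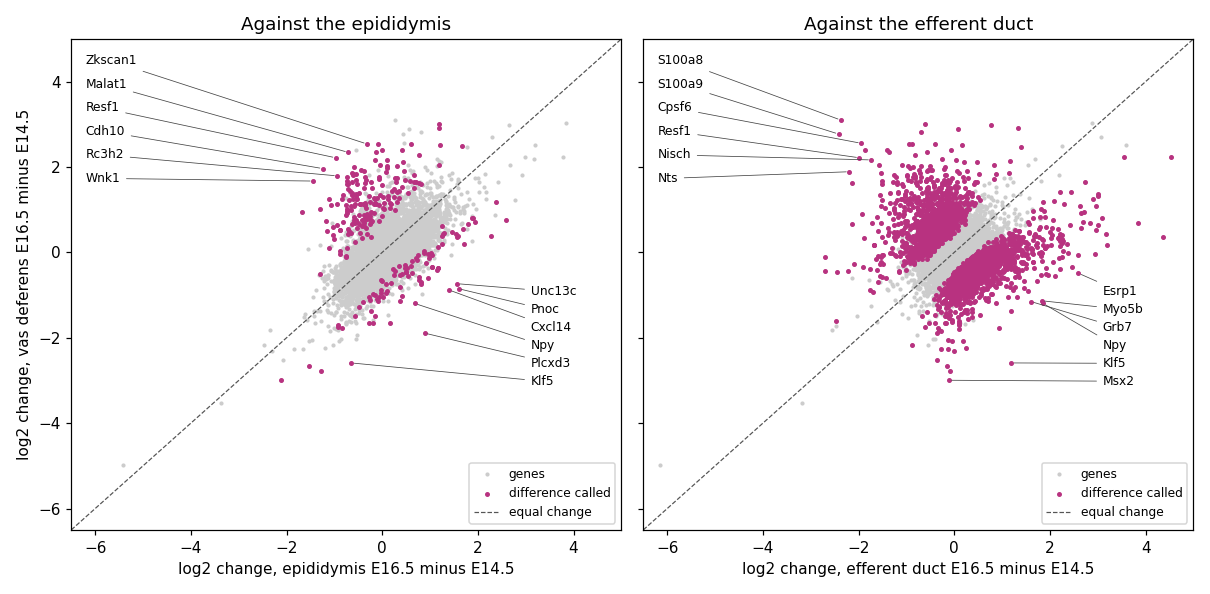
Log2 change from E14.5 to E16.5 in the epididymis (left, x axis) or efferent duct (right, x axis) against that in the vas deferens (y axis), 1 point per gene, magenta where the difference was called, with the line of equal change dashed. There are 271 magenta points on the left and 2697 on the right, and the named genes are the 6 largest in each direction that were also called in the vas deferens.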

How the data were processed

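Biotin-labelled total RNA, extracted with Trizol per the labels' protocols, was hybridised to Affymetrix arrays, and the submitters' processing notes name RMA, without a version. The deposited values are a ratio on a linear scale: 45081 of 45101 probe sets have a median of 1 over the 24 arrays. They hold no signal level, so no limit against background can be given. Here the log2 of the deposited ratio was taken, 64 controls were left out, 34945 probe sets with 1 symbol were kept (932 had several and 9160 none), and the most variable probe set stood for each of 18193 genes. Limma 3.58.1 in R 4.3.3 fitted a mean per group to 24 arrays (12 residual degrees of freedom), with Benjamini-Hochberg adjustment and a threshold of 0.05, and was tested on simulated data. With 2 arrays against 2 no exact permutation test can pass that threshold. Replicate numbers were not taken as pairs, since deviations of same-numbered arrays correlated at 0.05 in the vas deferens, 0.177 in the epididymis and 0.096 in the efferent duct.

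The text names the 15 largest called changes each way without overlap between ages, the 6 largest differences each way from each segment, and up to 5 called members of a list (any member of lists of at most 16), skipping predicted genes and shared-sequence families. Other members were named after their values were seen. The members and lists were chosen with earlier results of these data known, and lists are described by counts and medians without a test. Normalization, probe set choice, pseudocount, filter, prior, arrays used and replicate block were varied.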

Additional observations from a re-analysis of the deposited data

Results flagged for a closer look

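Each gene below was singled out because its change from E14.5 to E16.5 in the vas deferens differed from that in another segment by limma's test of the difference itself (adjusted p under 0.05 over all genes). A value is the log2 change in the vas deferens minus that in the other segment. Against the epididymis the change was more positive in the vas deferens for Cdh10 (3.20), Resf1 (3.19), Wnk1 (3.11), Malat1 (3.05), Zkscan1 (2.86), Rc3h2 (2.73), Scmh1 (2.63), Btg1 (2.35), Nisch (2.32), Hdac2 (1.94), Sostdc1 (1.83), Nts (1.81), Sema5a (1.77), Cma1 (1.74), Eya1 (1.70), Cpa3 (1.31), Gdnf (1.23), Col12a1 (1.14), Nr2f2 (1.01) and Notch2 (0.88). It was more negative for Plcxd3 (-2.78), Pnoc (-2.45), Unc13c (-2.30), Cxcl14 (-2.28), Klf5 (-1.94), Npy (-1.88), Dkk1 (-1.49), Hoxc10 (-1.35), Galnt5 (-1.14), Esrp1 (-1.12), Myh11 (-1.06), Frem1 (-0.97), Msx2 (-0.87), Cldn4 (-0.86) and Grb7 (-0.75). Of these, Galnt5, Frem1 and Cldn4 lost the call without the second epididymis array of E14.5, and Zkscan1, Hdac2, Msx2, Resf1, Malat1, Rc3h2, Nisch, Myh11, Nr2f2, Col12a1, Btg1 and Sema5a lost it with the mean of all probe sets. In the fit of the compared groups alone the call was lost by Cma1, Scmh1, Cpa3, Pnoc, Npy, Nts, Esrp1, Grb7, Eya1 and Notch2. Hdac2, Galnt5, Resf1, Myh11, Col12a1, Cldn4 and Sema5a lost the call in that fit too. Sostdc1, Dkk1, Klf5, Cdh10, Wnk1, Plcxd3, Unc13c, Cxcl14 and Hoxc10 kept the call under every setting tried, omission of each vas deferens array included.

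Against the efferent duct the change was more positive for S100a8 (5.47), S100a9 (5.19), Cpsf6 (4.50), Resf1 (4.20), Nts (4.08), Nisch (3.90), Sostdc1 (3.63), Pik3r1 (3.503), Scmh1 (3.48), Zkscan1 (3.41), Hdac2 (2.92), Slitrk4 (2.81), Cpa3 (2.35), Ogn (2.22) and Cma1 (1.59). It was more negative for Klf5 (-3.78), Esrp1 (-3.08), Npy (-3.05), Myo5b (-2.96), Msx2 (-2.88), Grb7 (-2.76), Dkk1 (-2.69), Galnt5 (-2.52), Sall1 (-2.47), Wif1 (-2.30), Dlx5 (-2.27), Amhr2 (-2.15), Wnt7a (-2.14), Nos1 (-2.03), Ehmt2 (-1.99) and Lypd6b (-1.93). With the mean of all probe sets Nisch (0.63) and Zkscan1 (0.52) lost this call, Hdac2 (0.36) with the probe set picked on the 20 other arrays, Cma1 (1.16) after quantile normalization, and Ogn in 2 of the 4 omissions of a vas deferens array. The early efferent duct arrays had wider value distributions than those of the vas deferens, and the part of this in the differences was not tested.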

How the results depend on the processing

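The count of genes that changed in the vas deferens, 2569, was 4390 with every probe set tested, 3859 after quantile normalization, 4003 in a fit of the compared groups alone, and 1296 to 1523 when 1 vas deferens array was left out, the lone array being assumed to vary like the other groups. The count that differed from the epididymis, 271, was 162 with the mean of all probe sets, 443 with every probe set, 770 after quantile normalization, 85 in the fit of the compared groups alone, and 138 to 268 with 1 array left out. The count that differed from the efferent duct, 2697, was 4335 with every probe set, 1344 in the fit of the compared groups alone, and 1668 to 1998 with 1 array left out. The other settings run kept each count within 1.5 times; testing more features and leaving out arrays change it by construction, and for the rest the cause was not tested. With the mean of all probe sets 2023 of the 2569 genes were called again. The sign turned for Hdac2 (-0.059), Cenpf (-0.24), Col5a1 (-0.029) and Cx3cr1 (-0.087) with the probe set picked on the 20 other arrays, for Rspo1 (-0.004) after quantile normalization and for Fbln1 (-0.009) with the mean of all probe sets. Without the second epididymis array of E14.5, chosen after seeing the data, the counts were 3111, 323 and 3206. A fit with the replicate block called 2579, 265 and 2686 genes; deviations of same-numbered arrays correlated at 0.05 in the vas deferens, 0.177 in the epididymis and 0.096 in the efferent duct, so not every pair passed 0.1 and the numbers were not taken as pairs.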

Other observations

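Several genes known from mast cells were called, in both directions. Cma1 (chymase) went from -2.60 and -2.88 to 0.03 and 0.34, a rise of 2.92 ± 0.23 (limma adjusted p = 2.12e-07), and Cpa3 (carboxypeptidase A3) from -1.59 and -1.48 to 0.93 and 1.04, a rise of 2.52 ± 0.15 (limma adjusted p = 1.35e-08). The tryptases Tpsab1 and Tpsb2 rose by 1.37 ± 0.23 and 1.27 ± 0.13, the latter with 0.18 on a second probe set, and Srgn, the granule proteoglycan, by 1.36 ± 0.17. Mcpt4, Ms4a2 and Fcer1a were not called, at 0.10, 0.13 and -0.04. Kit, the stem cell factor receptor, changed by -0.74 ± 0.13. Hdc, which makes histamine, went from 0.27 and 1.62 to -0.17 and -0.15, a change of -1.11 ± 0.35 (limma adjusted p = 0.0437). The size of the Hdc fall rested mostly on the second E14.5 array, and its other probe set changed by -0.93. In the epididymis Cma1 rose by 1.18 and Cpa3 by 1.21. Apart from Cma1 and Cpa3 these genes were chosen after their values were seen.

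S100a8 and S100a9, calcium-binding proteins of granulocytes, rose by 3.098 ± 0.58 and 2.77 ± 0.61, with E16.5 arrays that stood apart at 0.13 and 1.60 for S100a8. Other granulocyte genes, Ngp, Camp, Ltf, Mpo and Elane, changed by -0.12 to 0.63 and were not called. S100a9 lost its call with 1 of the 4 omissions of a vas deferens array.

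Hand2, a mesenchymal transcription factor, and Sp7 (osterix) changed by -1.60 ± 0.18 and -1.05 ± 0.14, by -1.57 and -1.08 in the epididymis, and by -0.06 and -0.10 in the efferent duct. The other probe sets of Hand2 had a median of -0.95. Of neuropeptide genes, Tac2 went from 3.27 and 3.23 to 1.58 and 1.59, a change of -1.66 ± 0.22, and Pnoc changed by -0.85 ± 0.22. Rmdn2 rose by 2.15 ± 0.18 on the probe set used and 2.23 on 3 others, and Kera (keratocan) by 1.91 ± 0.19, against 0.10 and -0.38 in the epididymis. These genes, except Pnoc, were chosen after their values were seen.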
